A study of Mus musculus with 6 samples.

Results

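The genes described here encode the contractile proteins of smooth and striated muscle together with their non-muscle relatives: actins, alpha-actinins, myosin heavy and light chains, myosin light chain kinases, troponins, tropomyosins, calponins, transgelins and desmin. They were chosen by gene symbol alone, and the rule found 47 genes, with 1 probe each, of 13409 named genes on an array of 19200 probes. By their usual site of expression 23 of the genes are striated muscle forms, 9 are smooth muscle forms, 13 are cytoskeletal forms found in most cells, and 2 belong to none of these classes, so the set is wider than muscle. RNA came from epididymal white fat of 12 week old male C57BL/6J mice killed 3 hr after an injection of CL-316,243 at 1 mg/kg or of saline. CL-316,243 is an agonist of the beta-3 adrenergic receptor, the main adrenergic receptor of the mouse adipocyte. Equal amounts of RNA of 6 mice were pooled for each treatment, and all 6 two-colour arrays compared that pair of pools. Arrays 1, 2 and 3 carried CL-316,243 RNA in channel 1, and arrays 4, 5 and 6 carried it in channel 2. With 1 pool per treatment the arrays repeat a single biological comparison, and every p-value below covers the spread between arrays and not the spread between mice.

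Contraction in every muscle is the sliding of myosin along actin filaments. In striated muscle it is switched on when calcium binds troponin and moves tropomyosin on the thin filament; in smooth muscle calcium and calmodulin act through myosin light chain kinase, which phosphorylates the regulatory light chain, and calponin and transgelin sit on the actin filament. Many of the smooth muscle genes are targets of serum response factor (SRF), which binds the CArG box together with myocardin or its relatives. White fat holds smooth muscle in the walls of its vessels, and some of the mouse cells that can become thermogenic adipocytes carry smooth muscle genes. Epididymal fat also lies near organs with muscular walls, such as the epididymis and the seminal vesicle.

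Each value is a deposited log ratio of both channels, read as log2. Rows of the deposited table did not correspond between arrays, so every column was first placed on the probe numbers, which gave 245 of 282 possible values for the contractile genes. The placement favours agreement between arrays, so the p-values and counts of equal sign below can be too favourable, by an amount not measured. Between 92.3% and 99.8% of probes could be placed on arrays 1, 3, 4, 5 and 6, and 64.8% on array 2, the array with the most lost spots and the widest spread. The ratios of different arrays correlated weakly, with a mean Spearman coefficient of 0.28 (0.08 to 0.42) between arrays of the same dye orientation and 0.11 (-0.01 to 0.18) between arrays of opposite orientation. Ratios give no level of a gene, so whether a muscle or fat marker was present in the tissue at all could not be read from them, and no intensity was available to judge the signal behind a ratio. In RNA of a whole tissue, a change in the number of cells of a type and a change in RNA per cell cannot be told apart.

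The sources used here do not say which pool is the numerator of the ratio. The deposited signs were kept, and a positive ratio is taken to be probably a higher signal in the CL-316,243 pool. The basis is that the titles name the treated mice on all 6 arrays, and that genes known to be induced by beta-3 agonists were positive. Dio2, the deiodinase of activated brown fat, had a mean of 1.18 (limma adjusted p = 0.0114). Ppargc1a, a coactivator of mitochondrial genes, had 0.77 (adjusted p = 0.0354). Ucp1, the uncoupling protein, had 0.49 on the 4 arrays that measured it and was not under 0.05 (adjusted p = 0.0973). If saline is the numerator, every direction below turns round, and if the values are natural logs every size is 1.44 times larger on the log2 scale.

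Of the 47 contractile genes 43 had enough placed values to be tested, with at least 2 arrays in each dye orientation. Of these, 5 passed the limma test of the mean log2 ratio against 0 at an adjusted p under 0.05 (11.6%), against 3.09% of all 12872 genes tested. All 5 were positive: Cnn1, Tnnc2, Des, Acta2 and Actn4. For comparison, 1.9% of all genes passed with a positive ratio. None of the 43 passed with a negative ratio by limma, a direction in which 1.2% of all genes passed; at an unadjusted p under 0.05, 11 of the 43 (25.6%) were found in either direction, against 18.5% of all genes. On every array that measured the gene, the sign was the same for 7 contractile genes (16.3%, against 13.9% of all genes); all 7 were positive (6.9% of all genes) and none negative (7.02% of all genes). The median over the 43 was 0.06, beside -0.01 over all genes tested, and 27 of them (62.8%) had a mean above 0, against 47.6% of all genes. With the rows read as deposited, where rows do not correspond between arrays, the median of the contractile genes was 0.064 too, beside 0.004.

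**Figure D1:**
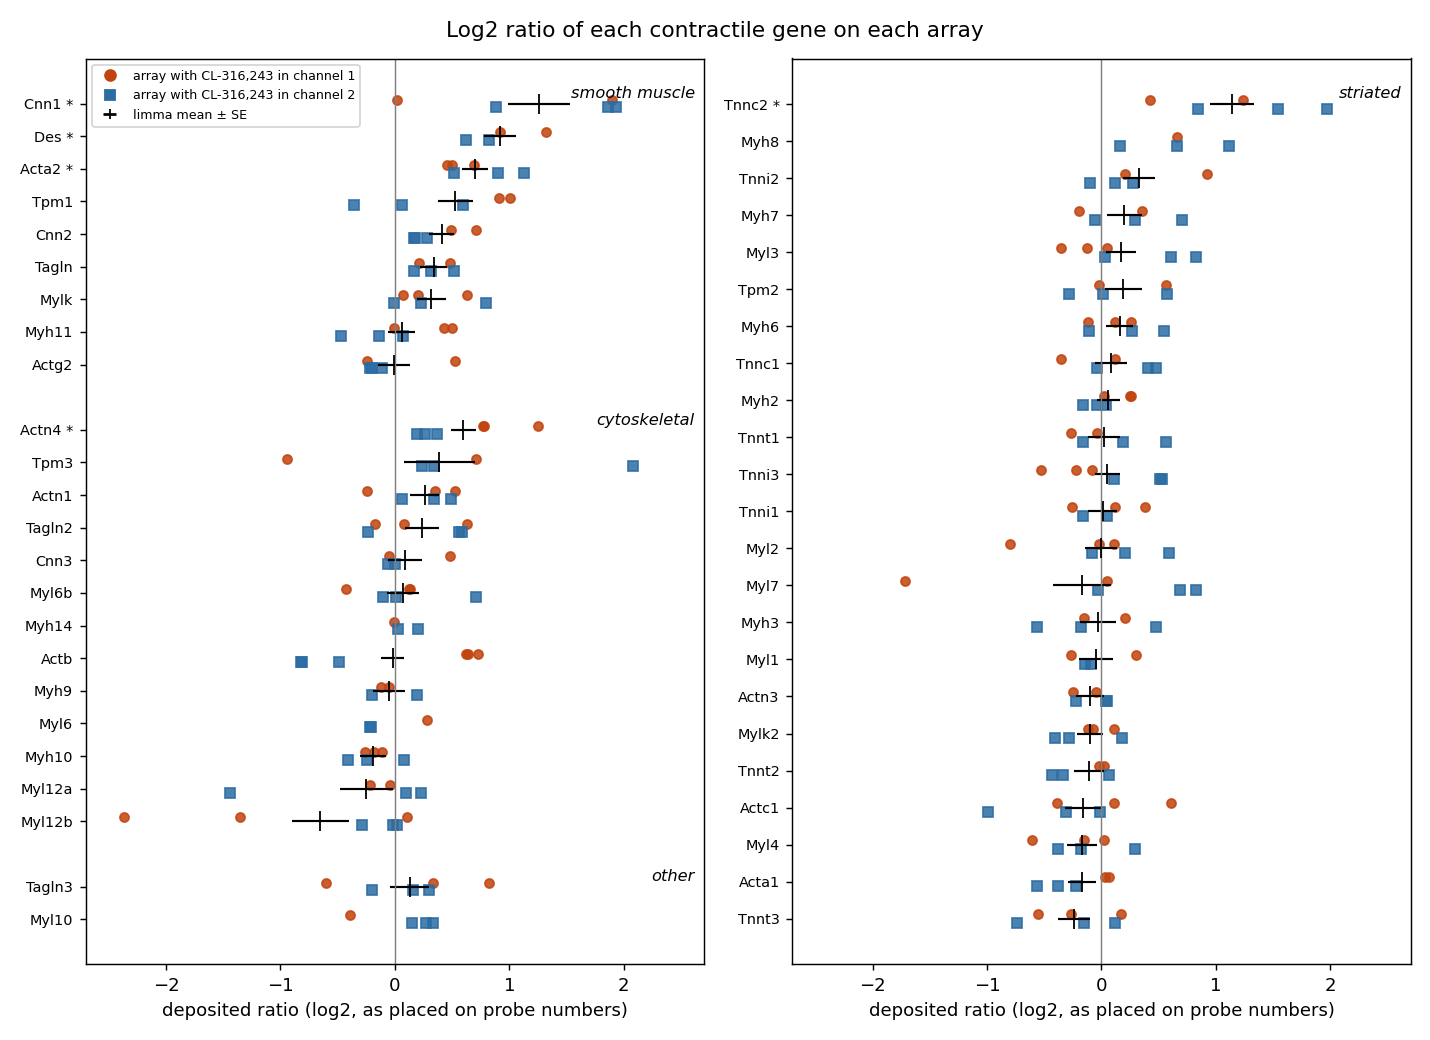
Log2 ratio of each contractile gene (rows, grouped by usual site of expression) on each array, with circles for arrays with CL-316,243 in channel 1, squares for arrays with CL-316,243 in channel 2, and the limma mean with its standard error as a black cross where the gene was tested. Asterisks mark the 5 genes that passed; the smooth muscle group leans to the right of 0 and the striated group, apart from Tnnc2, is spread on both sides of it.

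In the plot of all values the classes look different. All 9 smooth muscle genes were tested: 3 passed, 7 had an unadjusted p under 0.05 (all 7 positive), 8 had a mean above 0, and 5 were positive on every array that measured them. Their median was 0.41, and on single arrays it lay between 0.23 (array 6) and 0.63 (array 2), above 0 on all 6. On array 2 only Acta2, Mylk and Myh11 had a value. The median there is the value of Mylk, which was not placed when the contractile probes were masked in the placement. The 11 tested cytoskeletal genes had a median of 0.07 and the 22 tested striated genes a median of 0.01, and 1 gene passed in each class. These medians are descriptions of sets chosen with results of these data known, and no test was made between the classes. Some genes belong to more than 1 class. Des and Tpm1, counted as smooth muscle, are also genes of striated muscle, and Cnn2 is found in many other cells. Tpm2, counted as striated, is also found in smooth muscle. Des, 1 of the 3 that passed, did not pass with the contractile probes masked (limma adjusted p = 0.527).

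Acta2 (probe 10690), the alpha-actin of smooth muscle and the standard marker of vascular smooth muscle cells and myofibroblasts, was measured on all 6 arrays. Its log2 ratio was 0.46, 0.69 and 0.50 on arrays 1, 2 and 3 and 1.13, 0.90 and 0.52 on arrays 4, 5 and 6, so it was positive on every array and the orientations overlapped. The mean was 0.70 ± 0.11 (SE, n = 6 arrays), a 1.62-fold ratio (limma adjusted p = 0.0114). It did not pass without array 5 (0.69, adjusted p = 0.0673), nor on the 3 arrays with CL-316,243 in channel 1 alone (0.55, adjusted p = 0.253).

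Cnn1 (probe 4140), calponin 1, a smooth muscle protein that binds actin and slows the myosin motor, had the largest mean among the contractile genes. Its ratio was 1.90 and 0.02 on arrays 1 and 3 and 1.93, 1.86 and 0.88 on arrays 4, 5 and 6, with no value placed on array 2. Array 3 thus showed no difference while 3 others lay near 1.9. The mean was 1.26 ± 0.27 (SE, n = 5 arrays), a 2.39-fold ratio, with an adjusted p of 0.0444 by limma, close to the threshold. The call was lost when values were kept from a posterior of 0.8 (adjusted p = 0.0521), with a robust prior variance (adjusted p = 0.0897), and without array 4 (1.16) or array 5 (1.18). The probe lies 6 positions from the only lost spot inferred on array 6, where its posterior was 0.957, and without array 6 the mean was 1.43.

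Des (probe 977) encodes desmin, the intermediate filament that ties the contractile apparatus together in all muscle. It was placed on 4 arrays, with ratios of 1.32 and 0.92 on arrays 1 and 3 and 0.62 and 0.82 on arrays 5 and 6, all positive, and the mean was 0.92 ± 0.14 (SE, n = 4 arrays; 1.89-fold, limma adjusted p = 0.0166). This value rests on the placement itself. When the contractile probes were masked, so that their own agreement could not steer the placement, the values read for Des became -0.63 on array 1 and 0.03 on array 3, the mean fell to 0.21, and the gene did not pass (adjusted p = 0.527). Masking changed no other value among the 243 that were placed in both ways, where 241 were the same, and Acta2, Cnn1, Tnnc2 and Actn4 still passed. Cnn1 on array 6 and Mylk on array 2 were no longer placed, and the mean of Mylk became 0.24 (limma adjusted p = 0.424).

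The other smooth muscle genes did not pass. Cnn2, a calponin of smooth muscle and of many other cells, and Tagln, transgelin or SM22, an early marker of smooth muscle, were positive on all 5 arrays that measured each. Cnn2 lay between 0.17 and 0.71 (mean 0.41, adjusted p = 0.102) and Tagln between 0.17 and 0.52 (mean 0.34, adjusted p = 0.18). Tpm1, a tropomyosin of smooth and striated muscle, had a mean of 0.53 (adjusted p = 0.111) with a range of -0.36 to 1.01. Mylk, the kinase that starts smooth muscle contraction, had a mean of 0.32 (adjusted p = 0.236). The means of Myh11, the smooth muscle myosin heavy chain and one of the most specific markers of the lineage, and of Actg2, the actin of visceral smooth muscle, were near 0. Myh11 read -0.01, 0.43 and 0.50 on arrays 1, 2 and 3 and -0.47, 0.07 and -0.14 on arrays 4, 5 and 6 (mean 0.06, adjusted p = 0.826). Actg2 averaged -0.01 (adjusted p = 0.975). The smooth muscle genes thus ranged from Acta2 and Cnn1, which passed, to Myh11 and Actg2, with means of 0.06 and -0.01; differences between genes were not tested. Of the 6 defining smooth muscle markers tested (Acta2, Myh11, Tagln, Cnn1, Smtn and Lmod1) 2 passed, all 6 had a mean above 0, and the median was 0.40.

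RefSeq promoter windows on build GRCm38.p6, each 250 bases before to 50 after a start site, were found for 39 of the 47 genes and searched on both strands for the CArG box, the 10-letter SRF site that opens with CC and closes with GG around inner A or T letters. Of the 9 smooth muscle genes, Actg2, Myh11 and Tagln had no window, so they were not searched. The box was present in windows of 6 of the 39 genes (15.4%): Acta1, Actc1, Cnn2, Myl3, Myl6 and Myl7. Among all 27025 genes with a window 1.81% held it, and among the 10160 tested genes with a window 1.65%. No window of the 5 genes that passed held the exact box. Acta2 held a pair of boxes in which 1 inner letter is C or G, beginning 84 and 34 bases upstream of the start; such altered boxes occurred in 9.69% of all genes. A match is only a match of letters. The windows of Acta2 (chr19:34255324-34255623, minus strand) and Cnn2 (chr10:79988350-79988649, plus strand) are printed as the smooth muscle genes with positive ratios that, among those with a window, hold a box of either kind. Those of Acta1 (chr8:123894726-123895025, minus strand) and Actc1 (chr2:114052826-114053125, minus strand) are printed as the striated actins, which hold boxes too and did not pass. All are given in the direction of the gene, with exact and altered boxes in capitals.
Acta2: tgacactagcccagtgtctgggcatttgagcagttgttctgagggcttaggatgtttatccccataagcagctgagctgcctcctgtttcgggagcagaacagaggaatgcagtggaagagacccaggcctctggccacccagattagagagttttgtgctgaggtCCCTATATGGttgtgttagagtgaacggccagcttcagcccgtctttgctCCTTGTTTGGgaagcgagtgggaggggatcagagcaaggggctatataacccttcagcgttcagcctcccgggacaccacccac
Cnn2: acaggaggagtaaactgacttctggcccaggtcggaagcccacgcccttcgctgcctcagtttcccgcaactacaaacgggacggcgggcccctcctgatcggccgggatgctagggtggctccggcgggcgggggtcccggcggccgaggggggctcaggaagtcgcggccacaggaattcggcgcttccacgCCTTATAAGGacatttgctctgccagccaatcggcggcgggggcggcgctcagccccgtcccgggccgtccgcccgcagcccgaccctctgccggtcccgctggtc
Acta1: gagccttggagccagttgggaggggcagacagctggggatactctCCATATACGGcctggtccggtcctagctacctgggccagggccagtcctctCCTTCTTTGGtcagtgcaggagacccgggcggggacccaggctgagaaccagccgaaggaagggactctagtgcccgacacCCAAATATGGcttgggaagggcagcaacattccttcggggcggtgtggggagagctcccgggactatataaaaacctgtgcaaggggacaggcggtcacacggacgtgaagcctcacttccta
Actc1: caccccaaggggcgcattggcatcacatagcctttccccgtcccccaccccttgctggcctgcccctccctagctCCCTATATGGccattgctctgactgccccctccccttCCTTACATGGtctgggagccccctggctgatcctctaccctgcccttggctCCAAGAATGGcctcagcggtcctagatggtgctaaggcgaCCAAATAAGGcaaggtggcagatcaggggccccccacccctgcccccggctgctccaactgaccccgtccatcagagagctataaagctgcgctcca
In these windows the exact box begins 56 bases upstream of the start in Cnn2, 73 in Acta1 and 47 in Actc1. Acta2 and both striated actins carry SRF-type letters near the start, while the ratio of Acta2 passed and those of Acta1 (-0.17, adjusted p = 0.489) and Actc1 (-0.16, adjusted p = 0.649) did not.

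The striated actins were spread around 0. Acta1, the skeletal muscle actin, had ratios of 0.03 and 0.07 on arrays 1 and 3 and -0.38, -0.22 and -0.56 on arrays 4, 5 and 6. Actc1, the cardiac actin, ranged from -0.99 to 0.61. Actb, the beta-actin of the cytoskeleton, is described with the dye orientations below.

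Among the cytoskeletal proteins that anchor and cross-link actin, Actn4 passed. Actn4 (probe 9446), a non-muscle alpha-actinin found at cell edges and adhesions, had ratios of 0.78, 1.25 and 0.77 on arrays 1, 2 and 3 and 0.37, 0.26 and 0.19 on arrays 4, 5 and 6. Every array was positive, but the orientations did not overlap, and each array with CL-316,243 in channel 1 exceeded each with it in channel 2. The mean was 0.60 ± 0.11 (SE, n = 6 arrays), a 1.52-fold ratio (limma adjusted p = 0.0188). It did not pass without the dye term, on either orientation alone (0.93 in channel 1, 0.27 in channel 2), or without array 4 or array 5 (highest adjusted p = 0.0866). Its relative Actn1, which joins actin to focal adhesions, had a mean of 0.26 (adjusted p = 0.319), and Actn3, the form of fast skeletal fibres, -0.10 (adjusted p = 0.719). Cnn3 and Tagln2, the broadly expressed relatives of calponin and transgelin, had means of 0.09 and 0.24, and neither passed.

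No myosin heavy chain passed by limma (7 tested), and none had an unadjusted p under 0.05. Their means lay within a narrow band, between -0.19 for Myh10, a non-muscle myosin II, and 0.20 for Myh7, the slow and cardiac heavy chain; Myh6, the cardiac alpha chain, had 0.16, Myh2, of fast oxidative fibres, 0.06, and Myh9, the main non-muscle myosin II, -0.05. Myh8, the perinatal skeletal chain, had too few values for the test and read 0.66 on array 3 and 0.16, 1.11 and 0.66 on arrays 4, 5 and 6. The other untested genes were Myh14, a non-muscle heavy chain, between -0.01 and 0.20, Myl6, the essential light chain of smooth and non-muscle myosin, between -0.22 and 0.28, and Myl10, a regulatory light chain, between -0.39 and 0.33.

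Light chains of myosin and their kinases did not pass either by limma (10 tested); Myl12b and Mylk had an unadjusted p under 0.05. Myl12b, a regulatory light chain of non-muscle myosin, had the lowest mean of all contractile genes, and 2 arrays set it. It read -1.35, -2.37 and 0.11 on arrays 1, 2 and 3 and -0.29, 0.02 and -0.02 on arrays 4, 5 and 6 (mean -0.65, adjusted p = 0.211). Without array 3 the mean was -0.98 and passed (adjusted p = 0.00866), and without array 2 it was -0.36 (adjusted p = 0.375). The related Myl12a had a mean of -0.25, with -1.44 on array 4 and values between -0.22 and 0.23 on the others. Myl3, the ventricular and slow essential light chain, had 0.17.

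Tnnc2 was the striated muscle gene that passed. Tnnc2 (probe 6050), the calcium-binding troponin C of fast skeletal fibres, had ratios of 1.24 and 0.42 on arrays 1 and 3 and 1.54, 1.97 and 0.84 on arrays 4, 5 and 6. All 5 arrays were positive and the orientations overlapped, with array 3 the lowest. The mean was 1.14 ± 0.19 (SE, n = 5 arrays), a 2.21-fold ratio (limma adjusted p = 0.0169). It did not pass without array 4 or array 5 (highest adjusted p = 0.0706).

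Its partners in the fast troponin complex did not pass. Tnni2, the inhibitory subunit of fast fibres, read 0.21 and 0.92 on arrays 1 and 3 and 0.12, -0.10 and 0.28 on arrays 4, 5 and 6 (mean 0.33, adjusted p = 0.255). Tnnt3, the subunit of fast fibres that binds tropomyosin, had -0.24 (adjusted p = 0.422). Tnnc1, the slow and cardiac troponin C, had 0.08, and Tnnt2, the cardiac troponin T, -0.11. Tpm2, a tropomyosin of slow and smooth muscle, had 0.19 (adjusted p = 0.589). Tpm3, a tropomyosin of slow muscle and of the cytoskeleton, had 0.39 (adjusted p = 0.562), with values from -0.94 on array 1 to 2.08 on array 4. The defining markers of skeletal muscle did not pass by limma (0 of 7 tested; Tnni2 had an unadjusted p under 0.05), with a median of 0.04; among them Ckm, muscle creatine kinase, had 0.04, Mylpf, the fast regulatory light chain, 0.07, and Pvalb, parvalbumin, -0.26. Tnnc2 thus passed while these other fast-fibre genes did not; the difference between them was not tested.

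In 3 of the 43 genes (6.98%, against 6.92% of all genes) every array of 1 dye orientation was positive and every array of the other negative: Actb, Acta1 and Tnni3, the cardiac troponin I. Actb was the clearest. It read 0.62, 0.73 and 0.64 with CL-316,243 in channel 1 and -0.49, -0.82 and -0.81 with it in channel 2, so the mean was -0.02 (adjusted p = 0.946). The difference between the orientations was 1.37, with an unadjusted p of 5.62e-05 and an adjusted p of 0.153 for the dye term. A ratio that keeps the sign of the channel rather than that of the pool cancels in the mean over both orientations. No contractile gene passed for the dye term by limma (6 had an unadjusted p under 0.05, 14.0%, against 10.4% of all genes; 0.00777% of all genes passed).

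**Figure D2:**
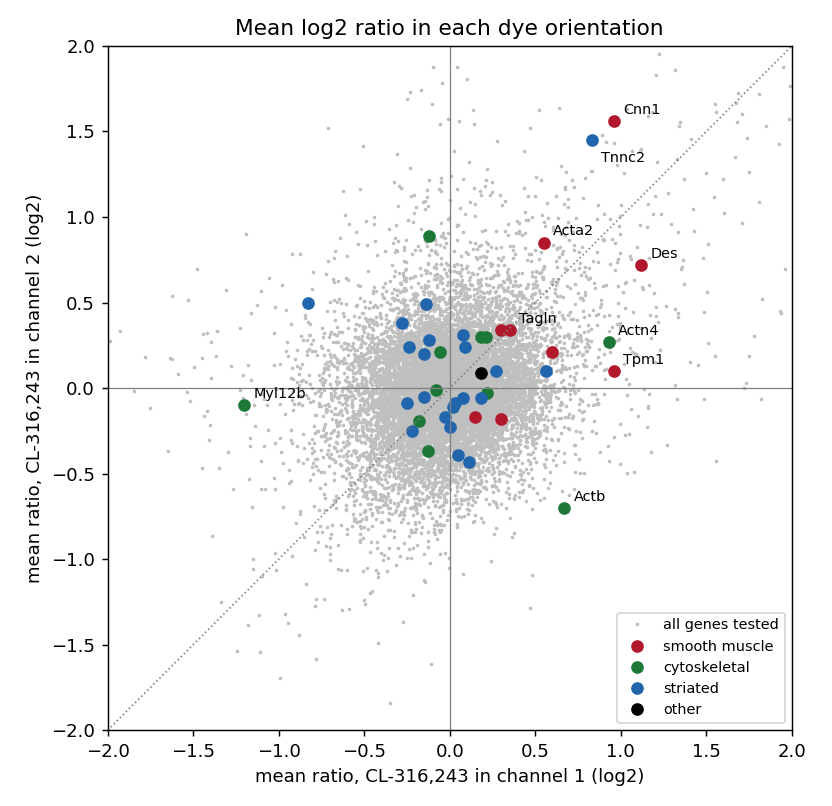
Mean log2 ratio on the arrays with CL-316,243 in channel 1 (x axis) against the mean on the arrays with CL-316,243 in channel 2 (y axis) for every gene tested, with contractile genes as coloured points and 37 genes beyond 2 in size not shown. Cnn1, Tnnc2, Acta2, Des and Actn4 lie in the upper right, while Actb lies in the lower right with means of 0.67 and -0.70.

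The plot of orientation means sets the genes that passed apart from Actb, whose ratio turned with the dyes, and from Myl12b, which was low in 1 orientation only (-1.20 with CL-316,243 in channel 1, -0.10 with it in channel 2).

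Other genes of the same pathways were taken from lists. Of 21 tested genes of smooth muscle and of SRF signalling outside the contractile set, 2 passed, both positive, and the median was 0.06. Csrp1, a LIM protein of smooth muscle, was positive on all 6 arrays (mean 0.66 ± 0.11 SE, adjusted p = 0.0128), and Vcl, vinculin, which links actin to adhesions, on all 4 that measured it (mean 0.75 ± 0.16 SE, adjusted p = 0.0495). Smtn, smoothelin, a marker of contractile smooth muscle, had 0.46 (adjusted p = 0.0705), Srf itself 0.34 (adjusted p = 0.295) and Myocd, myocardin, -0.21 (adjusted p = 0.52). Of 27 tested sarcomere and muscle metabolism genes outside the set, none passed by limma (5 had an unadjusted p under 0.05), with a median of -0.01; Csrp3, a LIM protein of striated muscle, came nearest at -0.56 (adjusted p = 0.0609).

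**Figure D3:**
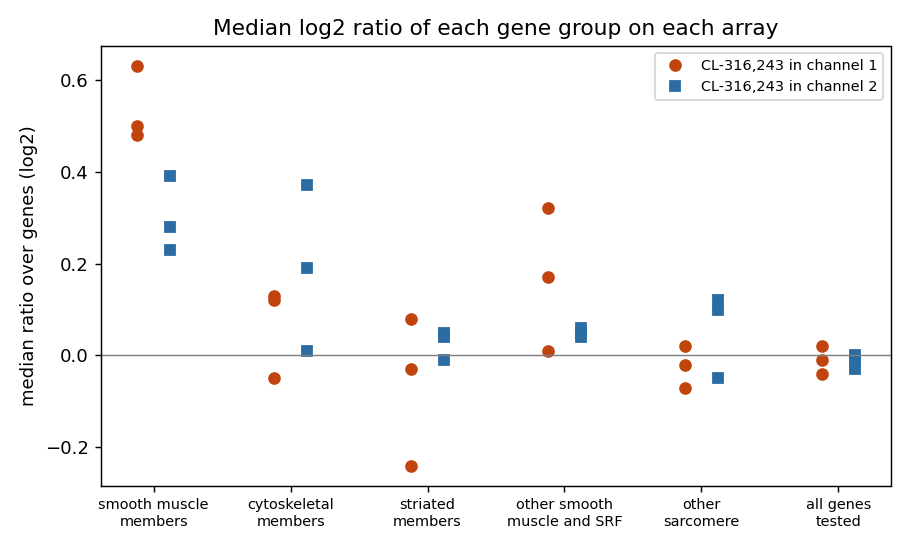
Median log2 ratio over the genes of each group (x axis) on each array (y axis, log2), with circles for CL-316,243 in channel 1 and squares for CL-316,243 in channel 2. The medians of the smooth muscle members lie between 0.23 and 0.63, those of all genes tested between -0.04 and 0.02. The smooth muscle median on array 2 rests on Acta2, Mylk and Myh11 alone.

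In the plot of medians the smooth muscle members lay above 0 on all 6 arrays, and the striated members and the other sarcomere genes on both sides of 0. Some marker lists that are not plotted had higher medians on single arrays: adipocyte markers 0.69 on array 3, mesothelial markers 1.11 on array 2 and macrophage markers 0.36 on array 5. The mesothelial value on array 2 is that of Krt18 alone.

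Markers of other cells and organs were read beside these results. Of 5 tested seminal vesicle genes all 5 passed with a negative ratio, with a median of -2.73, from -5.47 for Svs5 to -1.16 for Svs4, each negative on every array that measured it. Their sign is opposite to that of the smooth muscle genes that passed. None of these seminal vesicle genes is in the muscle lists, and what their sign means for muscle of that organ was not tested. By limma, pericyte markers had 0 of 5 passing (1 with an unadjusted p under 0.05), with a median of 0.15, from -0.45 for Rgs5 to 0.19 for Anpep. Adipocyte markers had 0 of 7 passing by limma (4 with an unadjusted p under 0.05), with a median of 0.34. They went both ways, from -0.47 for Pparg, negative on all 5 arrays that measured it, to 1.17 for Cidec, which read 3.17 on array 3. Fibroblast markers had 0 of 5 passing (median 0.05) and macrophage markers 0 of 3 (median 0.06), with 0 in either list at an unadjusted p under 0.05. Of 6 endothelial markers Cldn5 passed with 0.75 and Tek with -0.59. Of 4 mesothelial markers Krt18 passed with 0.69, while Krt8 went the other way without passing (-0.50, limma adjusted p = 0.0726). Krt8 was negative on all 5 arrays that measured it. Msln had 0.14 and Krt19 -0.02, and the mesothelial median was 0.06. The part of any cell type or attached organ in the ratios of the contractile genes was not tested.

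How firmly the 5 calls stand differed between the genes, as the plot of alternatives shows. With the rows read as deposited, without placement, no contractile gene and no gene at all passed by limma (2 contractile genes and 489 genes had an unadjusted p under 0.05), and the means of Acta2 and Actn4 were -0.12 and -0.24. Leaving out array 5 also ended all 5 calls, though the means of Acta2, Cnn1, Tnnc2 and Actn4 stayed between 0.60 and 1.18 and Des could no longer be tested. Under the other alternatives that could test them, the means of Acta2, Cnn1, Tnnc2 and Actn4 stayed positive; Cnn1 and Tnnc2 could not be tested without array 1, without array 3 or with values on all 6 arrays. Without arrays 2 and 3, an alternative chosen after seeing the data, neither Acta2 (0.65, adjusted p = 0.119) nor Actn4 (0.52, adjusted p = 0.149) passed. Acta2 passed with the contractile probes masked, at both other posterior minimums (0.8 and 0.99) and with a robust prior variance.

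**Figure D4:**
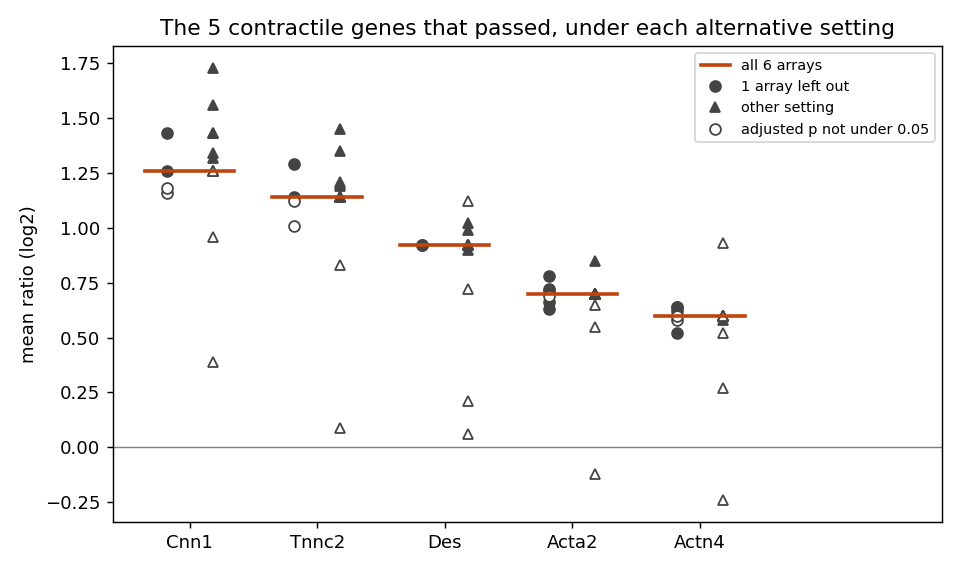
Mean log2 ratio of the 5 genes that passed (x axis) with all 6 arrays (line), with 1 array left out (circles) and under the other alternative settings (triangles); open symbols had an adjusted p that was not under 0.05. The triangles near or below 0 are the rows read as deposited and, for Des, also the masked placement at 0.21.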

How the data were processed

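The agonist is named as in the titles; the labels' description spells its code with another last digit. Per the labels, labelled cDNA of the pools was detected by tyramide signal amplification and quantified in QuantArray 3.0, and the authors applied a scale factor between the dyes and LOWESS. The deposited values are ratios read as log2, although no source used here gives their log base or numerator.

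Arrays 1 to 6 lacked 29, 724, 38, 169, 8 and 1 values, all at the end of their column, so a row did not hold the same spot on each array. Each column was placed on probe numbers with a hidden Markov model that lets a column lose spots (normal scores clipped at 3, 3 rounds, 12 starting points), and positions with a posterior of at least 0.95 were kept. Because agreement between arrays steers the placement, it also inflates that agreement. The limma p-values can be too small for this reason, and the counts of equal sign too high. The numbering was checked on 1201 pairs of probes of 1 gene at least 200 positions apart: their ratios correlated at 0.113, against -0.061 to 0.064 at 20 shifted numberings, but by rank at 0.043, which other shifts reached. The probes of Des, Cnn1 and other contractile genes, such as Cnn2, Tnni2 and Tnnt3, lie before the lost spot inferred on array 6. In that stretch there were only 20 pairs. These correlated at 0.255, against up to 0.21 when shifted, and by rank at 0.214, against up to 0.379. So few pairs cannot check the numbering of that stretch. The ratios were fitted per gene with limma 3.58.1 (R 4.3.3, lmFit and eBayes) with dye orientation as a term, and adjusted by Benjamini-Hochberg over 12872 genes. Per the platform annotation, 4483 probes have no name and 6 have several; 14416 matched a current gene record. Probe sequences were not used here, so signal shared between near-identical family members was not assessed. The scripts were tested on simulated data. The genes, lists and the rule for named genes (every gene that passed, the 2 highest and 2 lowest of each family, and fixed markers) were chosen with earlier results of these data known. Actg1, Myl9, Tpm4, Myh1 and Myh4 were not analysed here. Alternatives were the placement, posterior minimum, dye term, scaling, orientation, arrays left out, probe choice and prior variance.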

Additional observations from a re-analysis of the deposited data

Results flagged for a closer look

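Of 45 contractile genes with values on 4 or more arrays, 3 had 1 array far from the others, which is close to what chance gives, about 1 gene in 20; the share over all genes was not computed. Actg2, the visceral smooth muscle actin, read 0.53 on array 3 and between -0.24 and -0.11 on the other 4 arrays, and its mean without array 3 was -0.19. Cnn3, the broadly expressed calponin, read 0.48 on array 1, and the other 3 arrays lay between -0.06 and 0. Myl12a, a regulatory light chain of non-muscle myosin, read -1.44 on array 4 and between -0.22 and 0.23 on the other 4 arrays, and its mean without array 4 was 0.02. None of these genes passed the limma test, and the spots behind the values could not be inspected.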

How the results depend on the processing

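The count of contractile genes that passed, 5, became 0 with the rows as deposited and 0 on the arrays with CL-316,243 in channel 1 alone (2 and 8 at an unadjusted p under 0.05 by limma). It was 3 on the arrays with CL-316,243 in channel 2 alone, 2 with values on all 6 arrays (20 genes tested), and 3 without arrays 2 and 3, an alternative chosen after seeing the data. With 1 array left out it lay between 0 (array 5; 7 at an unadjusted p under 0.05) and 5 (array 2); it was 2 without array 1 and 3 without array 3 (21 genes tested each), 2 without array 4 and 4 without array 6. Over all genes the count of 398 became 0, 36, 211 and 189 with the rows as deposited, on channel 1 alone, on channel 2 alone and without arrays 2 and 3, and lay between 121 (array 5) and 371 (array 3) with 1 array left out. With the rows as deposited Acta2 (-0.12) and Actn4 (-0.24) turned negative, neither passing. Of 735 values of single genes under alternatives, 709 kept their direction where called and their side of the threshold, 23 lost the call with the same direction, 2 lost it with the direction turned (Acta2 and Actn4, above), and 1 gained it, Myl12b. Most of the 709 belong to genes that were never called, and they include 59 values whose sign turned. Only the 5 genes that passed had a call to lose. Acta2 lost its call in 4 of 19 alternatives and Actn4 in 7 of 19. Cnn1 lost it in 6 of 16, Tnnc2 in 4 of 16 and Des in 4 of 14. The median over the contractile genes, 0.063, moved by less than the spread between arrays (SD 0.092) under every alternative run. That spread is larger than the median itself, and the median was 0.064 with the rows as deposited. Its steadiness therefore cannot show that the median is reliable. The dye term had 0 calls throughout. Each value is already a ratio of both pools on 1 array, so the limma test compared the pools within arrays. The array numbers pair nothing else. Without intensities, signal over background could not limit or weight any ratio.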
